A study of Drosophila melanogaster with 8 samples.

Results

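The heads of flies carrying the RNA2 knockdown of FBXO11 were compared with control heads, gene by gene, in 5 of the 8 RNA-seq libraries of a study of adult Drosophila melanogaster. The 5 libraries were chosen by their titles: 2 are titled RNA2 and 3 are titled control. The genotype entry of RNA2 library 1 is FBXO11 KD2 and that of RNA2 library 2 is FBXO11 KD3, so the genes and lists described in full are shown for each library. The 3 controls share the entry FBXO11 WT. The other 3 libraries, titled RNA1 with the entry FBXO11 KD1, entered the model so that the spread between replicates could be estimated from more samples, and they were compared with RNA2 at the end. All 8 libraries, controls included, are titled as adult heads of a neuronal knockdown and carry batch 1. The sources used here do not give the driver line, the RNA interference constructs, the age in days or the sex. Levels of sex markers are given under the other observations. No genotype entry is shared by knockdown and control, so a difference of genetic background cannot be told apart from the knockdown. The labels do not say whether replicates are separate pools of flies, so the spread that p-values are set against may be technical.

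FBXO11 is an F-box protein. F-box proteins are the substrate receptors of SCF ligases, in which a cullin and a RING protein bring a ubiquitin-charged enzyme to the bound substrate, and many ubiquitinated proteins are then degraded by the proteasome. Proteins were not measured here, and all values are transcript levels. A fly head holds photoreceptors, brain neurons and glia together with fat body, muscle, epidermis and blood cells. In such a bulk sample fewer cells of a type and less RNA per cell cannot be told apart.

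The RNA2 libraries held 35832058 and 33369175 counted reads and the controls 38933684 to 41589222. Levels are given as CPM, counts scaled to a common library size by TMM. A gene rose or fell, in the words used here, when its FDR, edgeR's Benjamini-Hochberg adjusted p over the 11081 genes tested, was under 0.05. Across genes the RNA2 libraries correlated at r = 0.987 on the log2 CPM scale and the pairs of controls at 0.989 to 0.993, and genes are not independent replicates. On the second principal component, which held 17.9% of the variance, RNA2 library 1 stood at 32.81 and RNA2 library 2 at 8.62. A wide gap was also seen among the RNA1 libraries, which share 1 genotype entry, at -31.33, -6.46 and -10.27. The controls stood at 5.23, -2.62 and 4.02. Library 1 stood apart from library 2 for many of the lists below, so counts are given with and without it. The defining markers of a head were present: the summed level of 6 photoreceptor markers was 68440 and 54330 CPM in RNA2 and 53720 to 60780 CPM in control, and that of 5 neuronal markers 4314 and 4512 CPM in RNA2 and 4536 to 4968 CPM in control.

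FBXO11 (FBgn0037760, BDGP6 3R:9803486-9809368, minus strand, with no overlapping gene) held 44.8 and 52.7 CPM in the RNA2 libraries and 108, 102.9 and 97.4 CPM in the controls. Both RNA2 libraries lay below all controls, at 47.5% of the control mean (48.8 ± 5.54 CPM, SD, n = 2, against 103 ± 5.29 CPM, n = 3). The fall was log2 -1.08 ± 0.10 (SE, edgeR FDR 0.000539). With library 1 alone it was log2 -1.20 ± 0.12 (FDR 0.00157) and with library 2 alone log2 -0.96 ± 0.11 (FDR 0.00556).

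Across the transcriptome 195 genes rose and 224 fell in RNA2 heads, together 3.78% of the genes tested, with 1.76% higher and 2.02% lower. A change of at least 2-fold was reached by 110 of the genes that rose and 70 of those that fell. In every called gene both RNA2 libraries lay beyond all controls, so a lack of overlap adds nothing to a call. Among all genes both lay above the controls in 20.4% and below them in 18.5%. The median log2 fold change of all genes was 0.0097. An unadjusted p under 0.05 was reached by 2044 genes, or 18.4%, and 51.8% of all genes had a positive log2 fold change. Scaled by library totals instead, the median moved to 0.0464 and the split to 242 higher and 186 lower, so the balance of rises and falls depended on the scaling. The number of calls also depended on single libraries: 253, 206 and 203 genes passed without control 1, 2 or 3, and 554, 326 and 411 without RNA1 library 1, 2 or 3. RNA2 library 1 alone gave 561 calls among 11489 genes (4.88%, 201 or 1.75% higher and 360 or 3.13% lower), and RNA2 library 2 alone gave 115 among 11486 (1%, 59 or 0.514% higher and 56 or 0.488% lower). Of 118 named genes that were called, 99 were named by the fixed rule and 19 after their values were seen. Under every one of the alternatives tried, 44 of the 99 and 8 of the 19 kept their call. Of the 118, 59 lost it without RNA2 library 1 and 23 without RNA2 library 2, and the highest FDR over the 8 fits that each left out 1 library is given below for those named.

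**Figure D1:**
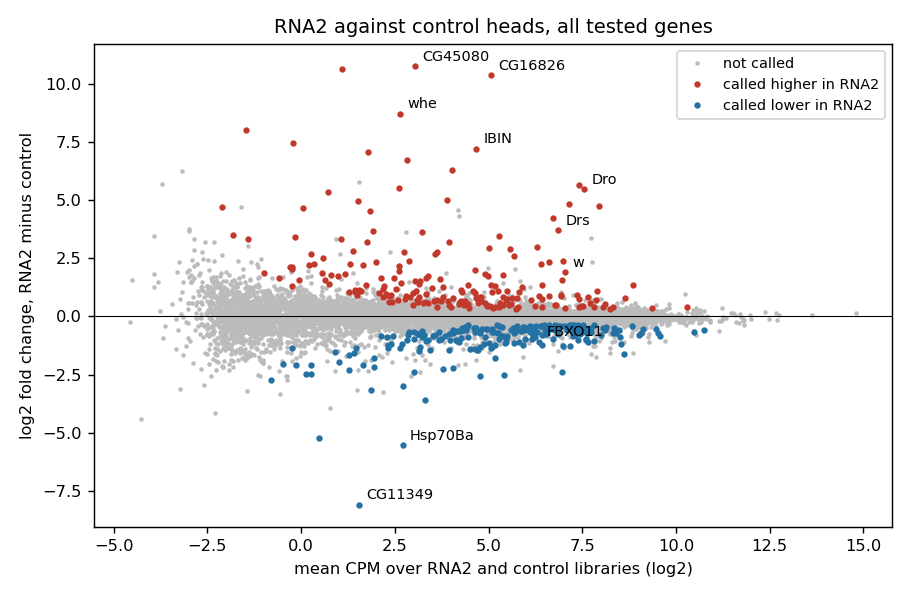
Log2 fold change of RNA2 over control (y axis) for the 11081 genes tested. The x axis is the log2 of the mean CPM over the RNA2 and control libraries. Genes called higher and lower at FDR under 0.05 are in colour. The called genes number 195 above and 224 below zero, and the largest rises, such as CG45080 and CG16826, are genes near 0 CPM in control.

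A small group of genes was close to silent in control heads and clearly present in both RNA2 libraries. CG16826 (FBgn0032505) held 86.6 and 79.3 CPM in RNA2 and 0.052, 0.024 and 0.105 CPM in control. The pooled counts were 5794 in RNA2 and 7 in control, a ratio of 1430 per counted read with an exact 95% interval of 694 to 3560. CG45080 (FBgn0266455) held 21.6 and 19.6 CPM in RNA2 and at most 0.026 CPM in a control, with 1438 counts against 1 (ratio 2480, 445 to 98200). The groups did not overlap in either gene. The same held for whe, with 19.2 and 12.0 CPM in RNA2 and 1097 counts against 4 in control (ratio 474, 185 to 1740). It held for CG30091 with 596 counts in RNA2 against 7 (ratio 147, 71 to 368), and for CG43679 with 146 against 1 (ratio 252, 44.6 to 10000). The antisense RNA asRNA:CR44155 held 4.4 and 6.23 CPM in RNA2 and no count in control. Its 369 counts in RNA2 were at least 213-fold higher than control set to the floor of 3 counts over the group, and the exact 95% lower limit of the ratio was 172. It overlaps rpk on the opposite strand, and since the strand setting of the counting is not given, reads of such pairs cannot be told apart. The intervals cover counting error only, since counts come from amplified reads. All 6 calls were kept in every leave-one-out fit.

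Genes with a measurable control level also rose beyond the spread of the replicates. The eye colour gene w encodes an ABC transporter that carries pigment precursors and is also the visible marker of many fly transgenes. It held 256 and 216 CPM in RNA2 and 59.3, 63.3 and 66.5 CPM in control (log2 1.91 ± 0.10, FDR 1.25e-05). Ipk1, the kinase that makes inositol hexakisphosphate, held 57.0 and 53.0 CPM in RNA2 and 16.1, 16.1 and 16.6 CPM in control (log2 1.76 ± 0.08, FDR 4.15e-06). CG45045 held 42.8 and 27.4 CPM in RNA2 and 0.626, 1.14 and 1.47 CPM in control (log2 5.02 ± 0.42, FDR 0.00214). In each of these genes the lower RNA2 library was more than 3-fold above the highest control, and the call was kept in every leave-one-out fit. Among the 20 eye pigment genes tested, w was the only one called, or 5%, against 3.78% of all genes.

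**Figure D2:**
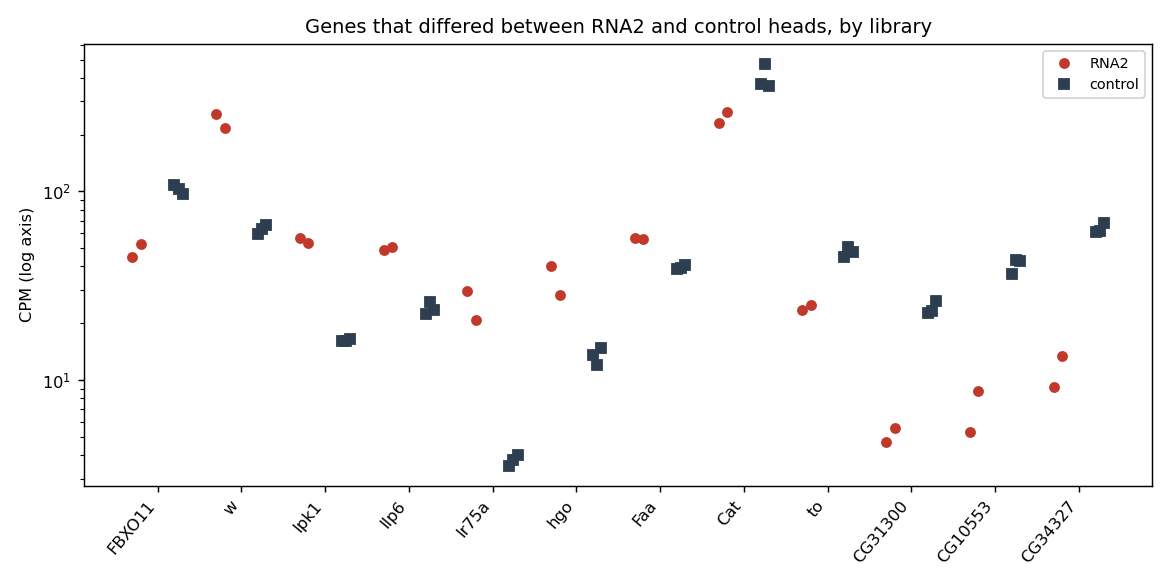
CPM on a log axis in each RNA2 library and each control for 12 genes: FBXO11, the risers w, Ipk1, Ilp6, Ir75a, hgo and Faa, and the fallers Cat, to, CG31300, CG10553 and CG34327. In all 12 genes the 2 RNA2 points lie on one side of the 3 control points, as was so for every called gene. Among all genes tested both RNA2 libraries lay above all controls in 20.4% and below them in 18.5%.

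Antimicrobial peptides and other immune-induced genes rose together. Of 36 members tested, 20 rose and 3 fell, against 1.76% and 2.02% of all genes. The median log2 fold change was 1.67, with 1.58 for library 1 and 1.73 for library 2 above the control mean. The antifungal peptide gene Drs, which the Toll pathway induces, held 261.7 and 254.9 CPM in RNA2 and 17.6, 22.6 and 19.4 CPM in control (log2 3.70 ± 0.16, FDR 5.43e-06). The antibacterial peptide gene Dro, which the Imd pathway induces, held 537.6 and 369.7 CPM in RNA2 and 8.63, 8.85 and 13.3 CPM in control (log2 5.47 ± 0.42, FDR 0.0021). For both genes the groups were far apart and the call was kept in every leave-one-out fit. The bomanins are short secreted Toll targets. BomT1 held 13.3 and 14.2 CPM in RNA2 and 1.72, 1.73 and 2.57 CPM in control (log2 2.77 ± 0.31, FDR 0.00272), and BomS1 rose by log2 1.55 (FDR 0.0049), both kept throughout. The infection-induced gene edin rose by log2 6.27 ± 0.63 (FDR 0.0056).

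Other immune effectors rose with calls that rested on single libraries. DptA, an antibacterial diptericin, held 499.3 and 332.3 CPM in RNA2 and 3.68, 5.98 and 15 CPM in control (log2 5.66 ± 0.74, FDR 0.0163). IBIN, which infection also induces, held 64.1 and 61.2 CPM in RNA2 and 0.182, 0.535 and 0.551 CPM in control (log2 7.19 ± 0.81, FDR 0.00978). Mtk, an antifungal peptide, rose by log2 4.23 (FDR 0.027) and AttC, an attacin, by log2 4.73 (FDR 0.0162). Without RNA2 library 1 none of these 4 passed, with FDR 0.112 for DptA, 0.0721 for IBIN, 0.165 for Mtk and 0.115 for AttC. DptA, AttC and Mtk were also not called without control 2, nor Mtk without control 1. CecA1, a cecropin, held 50.9 and 34.9 CPM in RNA2 and 1.51, 2.48 and 1.44 CPM in control but missed the threshold (log2 4.56 ± 0.87, FDR 0.0551). The number of rises in the list was 13, 14 and 13 without control 1, 2 or 3, and 9 without RNA2 library 1. Because some cecropins, attacins and bomanins are near-identical to another member of their family, reads of those may be assigned to the wrong copy. How alike the members named here are was not examined.

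The 3 members that fell are BaraC, Drsl4 and Listericin. BaraC, a baramicin, held 10.5 and 10.9 CPM in RNA2 and 23.1, 20 and 22.4 CPM in control (log2 -1.03 ± 0.12, FDR 0.00231), a call kept in every leave-one-out fit. Drsl4, a drosomycin-like gene, fell by 1.44 on the log2 scale (FDR 0.0134, at most 0.131 over the leave-one-out fits, lost without RNA2 library 1 or control 2). Listericin fell by 0.54 on the log2 scale (FDR 0.0409). It was not called without RNA2 library 2, without RNA1 library 2 or 3 or without any 1 control (at most 0.11).

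Peptidoglycan recognition proteins, which bind bacterial cell wall, had 3 rises among 10 members tested and a median log2 fold change of 0.46. The amidase PGRP-SC2 held 19.6 and 9.97 CPM in RNA2 and 0.287, 0.510 and 0.158 CPM in control (log2 5.51, FDR 0.0122). The amidase PGRP-SB1 held 238.5 and 138.9 CPM in RNA2 and 32.1, 46.9 and 33.4 CPM in control (log2 2.33, FDR 0.0181). PGRP-SD rose by log2 1.27 (FDR 0.0381) and overlaps CG7492 on the opposite strand. Of the 3, none passed without control 1, control 3 or RNA2 library 1, with FDR of at most 0.0676 for PGRP-SC2, 0.0928 for PGRP-SB1 and 0.21 for PGRP-SD.

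Of 17 Imd pathway genes 8 had a positive and 9 a negative log2 fold change, and the median was -0.0069. DESeq2 called 1 higher and 1 lower. An unadjusted p under 0.05 was reached by 7 (41.2%), against 18.4% of all genes, and edgeR called 1. That gene, pirk, which restrains the pathway, rose, with 51.5 and 53.9 CPM in RNA2 and 11.8, 18.6 and 14.8 CPM in control (log2 1.81 ± 0.27, FDR 0.0143). It was not called without RNA2 library 1 (FDR 0.0727) or control 3. The NF-kappaB factor Rel had log2 0.37 (FDR 0.143) and the receptor PGRP-LC log2 0.18 (FDR 0.192). Of 20 Toll pathway genes edgeR called 0, with 2 at an unadjusted p under 0.05, 1 called lower by DESeq2 and 0 by limma-voom. The Toll member of smallest p, the factor Dif, had log2 -0.30 (FDR 0.0773). Of 12 Turandot and JAK-STAT genes edgeR, DESeq2 and limma-voom each called 0, with 1 at an unadjusted p under 0.05.

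The fat body and the blood cells are the main sources of such peptides in flies, and some of their genes rose as well. Of 24 fat body genes tested 4 rose and 1 fell, with a median of 0.25. Lsp1alpha, a larval serum protein, held 2.79 and 4.07 CPM in RNA2 and 1.30, 1.02 and 0.735 CPM in control (log2 1.75, FDR 0.00937). Gnmt, glycine N-methyltransferase, held 223.1 and 103.7 CPM in RNA2 and 22.1, 17.6 and 22.8 CPM in control (log2 2.97 ± 0.37, FDR 0.0104). It overlaps CG43630 on the opposite strand. Lsp1gamma (log2 1.57, FDR 0.0352) and Mtp, the lipid transfer protein of lipoprotein assembly (log2 0.47, FDR 0.0409), had weaker calls. Lsp1gamma was lost without RNA2 library 2, RNA1 library 2 or any 1 control (at most 0.151), and Mtp without RNA2 library 1, RNA1 library 2 or any 1 control (at most 0.306). Lsp2 held 719.6 and 214.1 CPM in RNA2 and 31.6, 38.7 and 65.8 CPM in control and missed the threshold (log2 3.36, FDR 0.0501). The clock-regulated gene to, made in head fat body, ran the other way, with 23.6 and 25 CPM in RNA2 and 45.0, 50.7 and 47.8 CPM in control (log2 -0.98 ± 0.12, FDR 0.00261), kept in every leave-one-out fit. The number of rises was 2 without any 1 of the controls or without RNA1 library 2.

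Among 16 blood cell genes, the scavenger receptor Sr-CI rose, with 24.7 and 17.6 CPM in RNA2 and 8.81, 9.60 and 7.72 CPM in control (log2 1.28 ± 0.21, FDR 0.0114). The phagocytosis receptor eater rose as well (log2 1.36, FDR 0.0221). Sr-CI was not called without RNA2 library 1 or control 3 (at most 0.0885), nor eater without either RNA2 library or without control 2 or 3 (at most 0.106). The list had 0 rises without RNA2 library 1 or control 3, 1 without control 2, 5 without RNA1 library 1 and 3 without RNA1 library 2. The summed level of 6 blood cell markers was 548.8 and 504.3 CPM in RNA2 and 423.2 to 441 CPM in control. That of 6 fat body markers was 2847 and 1975 CPM in RNA2 and 1394 to 1769 CPM in control. Both sums were higher in both RNA2 libraries than in every control, and their part in the immune and fat body results was not tested.

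Of 6 genes of tyrosine breakdown, a list written after values had been seen, 4 rose, with a median of 0.75. The homogentisate dioxygenase gene hgo held 40.1 and 28.3 CPM in RNA2 and 13.6, 12.1 and 14.7 CPM in control (log2 1.35 ± 0.17, FDR 0.00361). Faa, fumarylacetoacetase, the last enzyme of the pathway, held 56.4 and 56.1 CPM in RNA2 and 38.9, 39.3 and 40.5 CPM in control (log2 0.51 ± 0.07, FDR 0.00683). The groups did not overlap in either gene. Hpd, which makes homogentisate, rose by log2 0.74 (FDR 0.0264) and overlaps CtIP on the opposite strand, and GstZ1, the maleylacetoacetate isomerase, rose by log2 0.93 (FDR 0.0174). The tyrosine aminotransferase Tat had log2 0.76 (FDR 0.0855) and the phenylalanine hydroxylase Hn log2 0.32 (FDR 0.209). The call of hgo was kept in every leave-one-out fit. Faa was lost only without RNA2 library 1 (FDR 0.0573), and Hpd and GstZ1 were lost without any 1 of 4 libraries each (at most 0.205 and 0.0721). The list had 1 rise without RNA2 library 1 and 2 without control 3.

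Pepck2, a phosphoenolpyruvate carboxykinase of gluconeogenesis, held 137 and 60.1 CPM in RNA2 and 11, 17 and 11.6 CPM in control (log2 2.90, FDR 0.00908). Bcat, the branched-chain aminotransferase, held 97.9 and 64.7 CPM in RNA2 and 36.5, 39.1 and 40.7 CPM in control (log2 1.07, FDR 0.00505). Both calls were kept in every leave-one-out fit, and in both genes library 1 was the higher. Tdh, threonine dehydrogenase, rose by log2 1.16 (FDR 0.0208) and was lost without RNA2 library 1, control 1 or control 3 (at most 0.144). These 3 genes and hgo were singled out after their values were seen.

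Of 26 insulin pathway genes Ilp6 rose and Sdr fell, and in the neuropeptide list of 36 genes CCHa2 rose. Among all genes 1.76% were higher and 2.02% lower. The neuropeptide list also held sif, which is not a neuropeptide gene and was not called. Ilp6, the insulin-like peptide of the fat body, held 49.0 and 50.8 CPM in RNA2 and 22.5, 26 and 23.4 CPM in control (log2 1.06 ± 0.09, FDR 0.000321). CCHa2, a nutrient-dependent peptide that acts on insulin-producing cells, held 88.4 and 94.6 CPM in RNA2 and 51.5, 57.9 and 60.3 CPM in control (log2 0.69 ± 0.10, FDR 0.00644). In both the RNA2 libraries were close to each other and above all controls, and both calls were kept in every leave-one-out fit. Sdr, a secreted decoy of the insulin receptor, fell, with 22.3 and 25.5 CPM in RNA2 and 35.2, 33.9 and 36.1 CPM in control (log2 -0.56, FDR 0.00937, but 0.105 without RNA2 library 1). ImpL2, a secreted binder of insulin-like peptides, held 41.7 and 77.0 CPM in RNA2 and 113, 159 and 131 CPM in control and missed the threshold (log2 -1.18, FDR 0.0567).

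Beside Hsp70Ba, described with the heat shock genes, the largest falls included CG11349 and CG9029. CG11349 had 1 count in RNA2 and 563 in control, a ratio of control over RNA2 of 326 (58.2 to 12900), and CG9029 had 4 against 266 (38.5, 14.9 to 142). CG31300 held 4.71 and 5.58 CPM in RNA2 and 22.5, 23.3 and 26.3 CPM in control (log2 -2.22 ± 0.14, FDR 5.31e-05). CG10553 held 5.32 and 8.79 CPM in RNA2 and 36.7, 43.1 and 42.7 CPM in control (log2 -2.53 ± 0.19, FDR 0.00026). CG34327, with 9.19 and 13.4 CPM in RNA2 and 61.1, 61.9 and 68.1 CPM in control (log2 -2.50 ± 0.20, FDR 0.000525), was alike. In each the higher RNA2 library was under the lowest control by more than 4-fold, and the call was kept in every leave-one-out fit. Nepl4, a neprilysin-like peptidase, held 1.03 and 1.53 CPM in RNA2 and 13.5, 7.51 and 9.40 CPM in control (log2 -2.98 ± 0.35, FDR 0.0026), and CG9377 fell by 3.60 on the log2 scale (FDR 0.0016), both kept throughout. SPR, the sex peptide receptor, held 36 and 42.6 CPM in RNA2 and 83.0, 75.6 and 74.8 CPM in control (log2 -0.99, FDR 0.00203), and it overlaps frma on the opposite strand.

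Genes of detoxification moved in both directions, more of them down. Of 80 genes tested in the cytochrome P450 list 3 rose and 12 fell, with a median of -0.18. The list was matched by symbol and took in Cyp1 and Cyp40, which are cyclophilin genes and were not called. Cyp309a2 rose, with 20.4 and 13.8 CPM in RNA2 and 4.67, 5.86 and 5.93 CPM in control (log2 1.64 ± 0.19, FDR 0.0026). Cyp6a2 fell, with 20.1 and 16.1 CPM in RNA2 and 51, 43 and 39.2 CPM in control (log2 -1.29 ± 0.16, FDR 0.00369). Cyp6d5 (log2 -0.95, FDR 0.005) and Cyp6a20 (log2 -0.81, FDR 0.00512) fell too. These 4 calls were kept in every leave-one-out fit. The falls numbered 8, 6 and 7 without control 1, 2 or 3, 5 without RNA2 library 1 and 7 without RNA2 library 2. Of 32 glutathione transferases 1 rose and 3 fell, and GstD2 held 1.59 and 1.48 CPM in RNA2 and 4.80, 5.20 and 6.01 CPM in control (log2 -1.80, FDR 0.00272). GstE3 fell by 0.95 on the log2 scale (FDR 0.0027). Of 25 UDP-glycosyltransferases edgeR called 0, with 8 at an unadjusted p under 0.05, 3 higher and 5 lower by DESeq2 and 0 by limma-voom.

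Among 22 antioxidant genes 2 rose and 3 fell. Irc, the immune-regulated catalase, rose, with 226 and 233 CPM in RNA2 and 106, 135 and 119 CPM in control (log2 0.94, FDR 0.00185). MtnD, a metallothionein, rose by log2 2.22 (FDR 0.00933), and both calls were kept in every leave-one-out fit. Cat, the main catalase, fell, with 229 and 263 CPM in RNA2 and 372, 473 and 363 CPM in control (log2 -0.71, FDR 0.0207). Cat was not called without RNA2 library 1 (FDR 0.183) or control 2. The list had 1 fall without RNA2 library 1, 1 without control 2 and 2 without control 1, control 3 or RNA1 library 2.

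Cuticle proteins, the structural proteins of the exoskeleton, were mostly lower. Of 60 tested 1 rose and 6 fell, with a median of -0.72, and the median was -0.90 for library 1 and -0.38 for library 2. Cpr67B held 99.0 and 108 CPM in RNA2 and 155, 188 and 213 CPM in control (log2 -0.84, FDR 0.00602). Cpr49Ae held 56.3 and 82.3 CPM in RNA2 and 146, 166 and 188 CPM in control (log2 -1.27, FDR 0.0182). TwdlT held 15.4 and 18.1 CPM in RNA2 and 40.5, 41.8 and 32.4 CPM in control (log2 -1.19, FDR 0.00574). None of these 3 passed without RNA2 library 1 (0.0673, 0.0899 and 0.0673), and Cpr49Ae also not without control 2 or 3. The member that rose, Cpr49Ag, held 138 and 132 CPM in RNA2 and 85.4, 95.5 and 107 CPM in control (log2 0.49, FDR 0.0353), and it was lost without any 1 of 5 libraries (at most 0.216). The falls numbered 0 without RNA2 library 1, 15 without RNA2 library 2, 9 without RNA1 library 1, and 3 without control 2 or 3.

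The juvenile hormone binding family, a list added after values were seen, had 3 falls among 12 members and a median of -0.45. Jhbp1 held 60.9 and 75.2 CPM in RNA2 and 115, 139 and 138 CPM in control (log2 -0.95, FDR 0.00261). Jhbp13 held 171 and 253 CPM in RNA2 and 416, 534 and 482 CPM in control (log2 -1.17, FDR 0.0077). In both genes the RNA2 libraries lay below all controls and the calls were kept in every leave-one-out fit. Jhbp3 fell by 0.66 on the log2 scale (FDR 0.0356), lost without either RNA2 library or any 1 control (at most 0.121).

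The knockdown is labelled as neuronal. Calls by edgeR made up 4.55% of the transmitter list and 6.06% of the ion channel list, against 3.78% of all genes. They made up 0% of the synaptic vesicle, axon guidance, dpr and DIP, and clock lists. In lists this small a few calls more or fewer would change these shares. Of 22 transmitter synthesis and transport genes 1 fell, 21 had a negative log2 fold change, and the median was -0.29. An unadjusted p under 0.05 was reached by 11 (50%), against 18.4% of all genes. ChAT, which makes acetylcholine, held 140 and 147 CPM in RNA2 and 193, 187 and 177 CPM in control (log2 -0.37 ± 0.07, FDR 0.025). It shares exons with VAChT on its own strand, and the call was lost without either RNA2 library or any 1 control (at most 0.21). Of 33 ion channel genes 2 potassium channels fell, the leak channel Ork1 (20.1 and 19.7 CPM in RNA2 and 29.7, 31.7 and 33.2 CPM in control, log2 -0.67, FDR 0.0174) and the inward rectifier Irk3 (log2 -0.64, FDR 0.0221). Neither passed without either RNA2 library or without control 2 or 3 (at most 0.119 and 0.131), nor Irk3 without control 1. Of 39 synaptic vesicle genes edgeR, DESeq2 and limma-voom called 0, with 2 at an unadjusted p under 0.05. Of 45 axon guidance genes edgeR and limma-voom called 0 and DESeq2 called 4 lower, with 6 at an unadjusted p under 0.05. Of 32 dpr and DIP recognition genes edgeR and limma-voom called 0 and DESeq2 called 3 lower, with 5 under 0.05. Of 17 clock genes all 3 tools called 0, with 2 under 0.05.

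Glial genes were lower by small amounts. Of 18 tested 4 fell and the median was -0.26, with -0.39 for library 1 and -0.12 for library 2. The astrocyte gene alrm held 68.5 and 74.7 CPM in RNA2 and 94.9, 95.7 and 91.6 CPM in control (log2 -0.39, FDR 0.0301). The cortex glia exchanger gene zyd held 70.9 and 69.8 CPM in RNA2 and 97.8, 92.2 and 92.6 CPM in control (log2 -0.42, FDR 0.0452). The groups did not overlap in either gene, as was the case for 18.5% of all genes in that direction. The glial adhesion gene wrapper (log2 -0.53, FDR 0.041) and bnb (log2 -0.72 ± 0.16, FDR 0.0417) fell as well. All 4 calls were lost without RNA2 library 1 or any 1 control, with FDR of at most 0.255 for alrm, 0.222 for zyd, 0.165 for wrapper and 0.306 for bnb. The list had 0 falls in those fits and 2 without RNA1 library 2. The summed level of 6 glial markers was 2225 and 2517 CPM in RNA2 and 2632 to 2808 CPM in control, and its part in these falls was not tested.

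Among 37 phototransduction and photoreceptor genes 2 fell and the median was -0.03. Calls made up 5.41% of this list, against 3.78% of all genes. An unadjusted p under 0.05 was reached by 21.6%, against 18.4% of all genes. The chromophore enzyme gene ninaB held 169 and 161 CPM in RNA2 and 240, 233 and 246 CPM in control (log2 -0.54 ± 0.09, FDR 0.011, 0.0727 without RNA2 library 1). It overlaps Adgf-D and f-cup on the opposite strand. The opsin gene Rh7 fell by 0.47 on the log2 scale (FDR 0.0464), a call lost without any 1 of 6 libraries (at most 0.305).

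Single chemosensory genes had large changes. Of 63 chemoreceptor genes 2 rose and 1 fell, together 4.76%, which is near the 3.78% called among all genes. The ionotropic receptor Ir75a, which in flies answers to acids, held 29.8 and 20.7 CPM in RNA2 and 3.52, 3.77 and 3.99 CPM in control (log2 2.75 ± 0.19, FDR 0.000137). The related Ir75b held 16.8 and 12.0 CPM in RNA2 and 3.02, 2.72 and 2.49 CPM in control (log2 2.39, FDR 0.000423). The odorant receptor Or45b ran the other way, with 0.668 and 0.797 CPM in RNA2 and 2.58, 3.01 and 2.94 CPM in control (log2 -1.95, FDR 0.00428). All 3 calls were kept in every leave-one-out fit. Of 30 odorant binding proteins 1 rose and 3 fell, together 13.3%. Obp44a (log2 -0.78, FDR 0.00333) and Obp56d (log2 -0.70, FDR 0.00381) kept their calls throughout, and Obp44a overlaps Pabp2 on the opposite strand. Obp99d (log2 -1.45) and the riser Obp56h (log2 0.60) were lost without RNA2 library 1 (at most 0.21 and 0.192), control 2 or control 3.

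**Figure D3:**
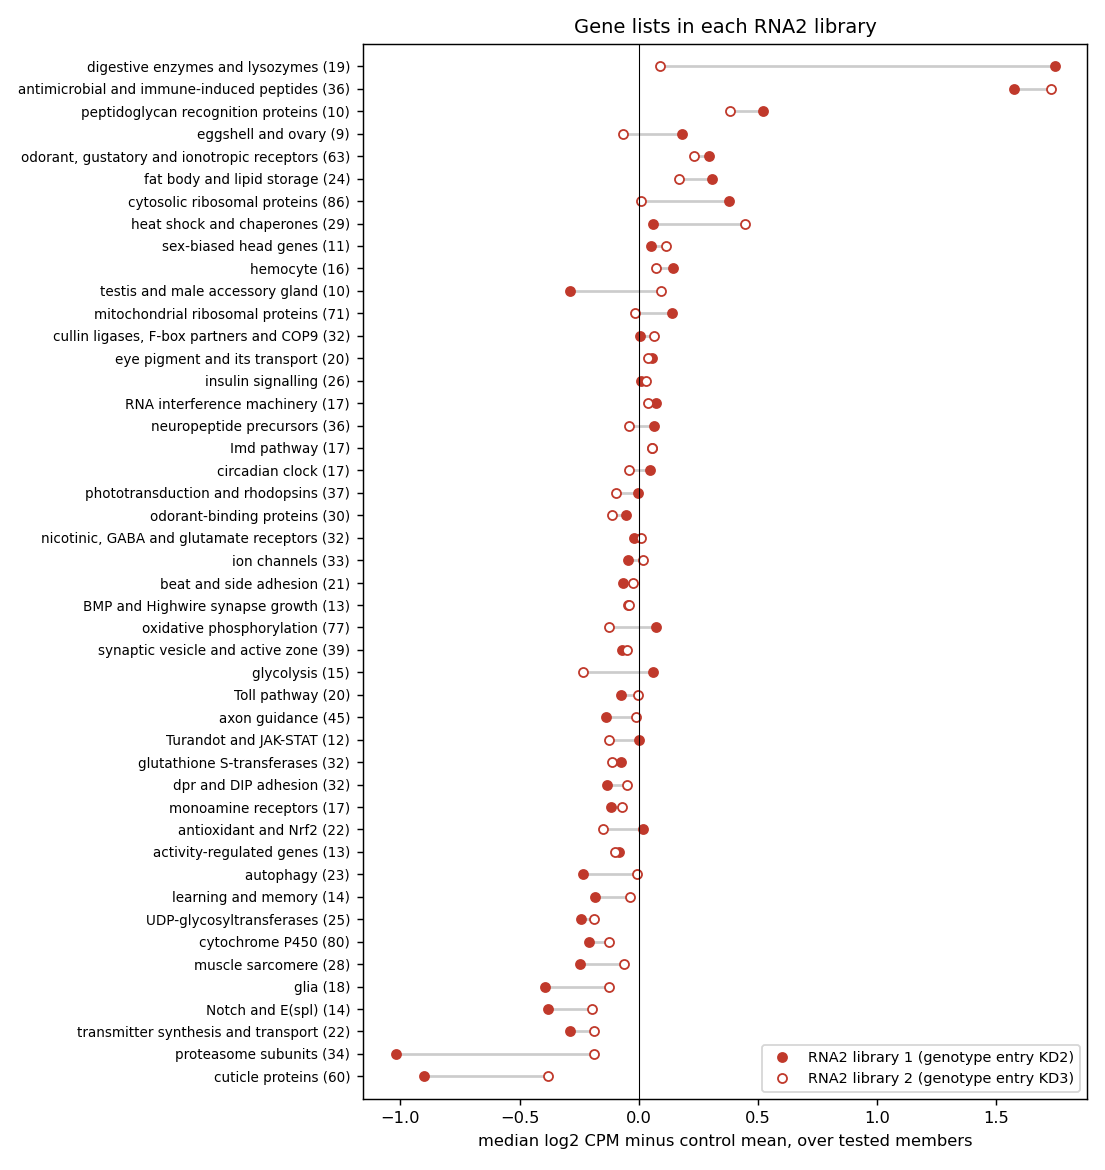
Median over each gene list of the log2 CPM of a library minus the control mean, with RNA2 library 1 (KD2) as filled and RNA2 library 2 (KD3) as open points. The antimicrobial peptides lie at 1.58 and 1.73, while the proteasome subunits lie at -1.02 and -0.19 and the cuticle proteins at -0.90 and -0.38.

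Proteasome subunits were low in RNA2 library 1 and near the controls in RNA2 library 2. Of 34 tested, edgeR and limma-voom called 0 and DESeq2 called 3 lower, with 4 at an unadjusted p under 0.05 and a median of -0.55. The median was -1.02 in library 1 and -0.19 in library 2. In library 1, 33 of the 34 subunits lay below all controls, against 33.8% of all genes, and 9 were called lower when library 2 was left out. In library 2, 14 lay below all controls, against 30.4% of all genes, and 0 were called when library 1 was left out. All 34 subunits were higher in library 2 than in library 1, by a median of log2 0.83, and 28 had an unadjusted p under 0.05 for that difference, against 7.42% of all genes. None of the 34 passed the FDR threshold for that difference by edgeR, where 1 library stands against 1, and DESeq2 called 13.

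The lid subunit gene Rpn3 shows the pattern, with 77.8 and 187.7 CPM in RNA2 and 214, 303 and 208 CPM in control. Against the controls it had log2 -1.64 ± 0.35 (FDR 0.0486) from library 1 alone and log2 -0.36 ± 0.32 (FDR 0.766) from library 2 alone. The lid subunit gene Rpn9 held 99.6 and 241 CPM in RNA2 and 270, 330 and 231 CPM in control. The catalytic subunit gene Prosbeta5 held 101.7 and 164.1 CPM in RNA2 and 172.5, 213.7 and 176.5 CPM in control. In all 3 genes library 1 was far below every control. Library 2 lay just under the lowest control for Rpn3 and Prosbeta5 and within the controls for Rpn9, and control 2 was the highest control. A low level was not particular to RNA2 library 1. RNA1 library 2 also lay below every control, with 116 CPM of Rpn3, 163 CPM of Rpn9 and 132 CPM of Prosbeta5. RNA1 libraries 1 and 3 lay within the controls for Rpn9 and Prosbeta5 and under the lowest control for Rpn3. The exception in RNA2 library 1 was Rpt3R, a low paralogue with 1.03 and 1.62 CPM in RNA2 and 0.756, 1.34 and 0.709 CPM in control. The subunit of smallest p in the joint fit, Prosalpha7, had log2 -0.62 (FDR 0.173). Associated factors, a list added after values were seen, had 0 of 12 called by edgeR and limma-voom and 1 lower by DESeq2, with 2 at an unadjusted p under 0.05. Of these the assembly chaperone gene Pomp held 49.9 and 68.5 CPM in RNA2 and 84.7, 93.8 and 75.6 CPM in control. The deubiquitinase gene Uch-L5 held 17.2 and 47.3 CPM in RNA2 and 46.2, 70.3 and 46.7 CPM in control.

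**Figure D4:**
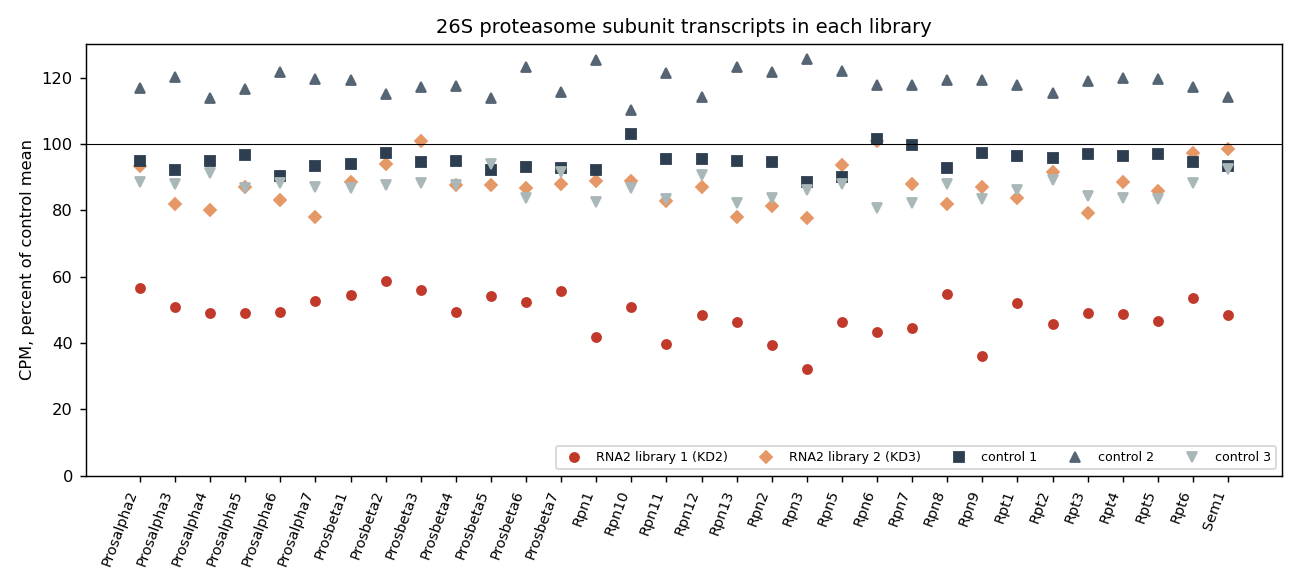
Level of the 32 proteasome subunits with a control mean above 30 CPM, each as a percent of that mean, in the 2 RNA2 and 3 control libraries. Rpt3R and Rpt6R were below that level and are not plotted. Rpt6R held 2.28 and 14.3 CPM in RNA2 and 20.1, 20.2 and 13.5 CPM in control. Library 1 of RNA2 runs from 32.2 to 58.5%, library 2 from 77.7 to 101%, and the controls from 80.8 to 125%.

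In other parts of protein turnover calls made up 3.12% of the cullin ligase list, 0% of the autophagy list and 3.45% of the heat shock list. The share among all genes was 3.78%. Among 32 genes of cullin ligases, F-box partners and the COP9 signalosome, FBXO11 was the only one called. Of 23 autophagy genes all 3 tools called 0, with 5 at an unadjusted p under 0.05. Of 29 heat shock genes, Hsp70Ba alone fell, with 0.111 and 0.354 CPM in RNA2 and 4.22, 16.7 and 11.2 CPM in control (log2 -5.52 ± 0.78, FDR 0.011, 0.101 without RNA2 library 1). The 6 near-identical Hsp70 copies share reads. Their summed level was higher in both RNA2 libraries, at 338.4 and 717.5 CPM, than in the controls, at 58.24, 223.1 and 192 CPM, so the fall of Hsp70Ba did not hold for the family.

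Of 86 cytoplasmic ribosomal protein genes 3 rose, or 3.49%, which is near the 3.78% called among all genes. A positive log2 fold change was found in 83 of them, against 51.8% of all genes, and an unadjusted p under 0.05 in 22 (25.6%), against 18.4%. The median was 0.20. The median was 0.38 for library 1 and 0.01 for library 2. RpS20 (log2 0.40, FDR 0.0298, overlapping CG17272 on the opposite strand), RpS3A (log2 0.39) and RpL21 (log2 0.35) rose. None was called without RNA2 library 1, RNA1 library 2 or any 1 control, nor RpS3A and RpL21 without RNA2 library 2, with FDR of at most 0.237, 0.272 and 0.316. Of 14 subunits of the initiation factor eIF3, a list added after values were seen, 3 rose and 14 of 14 were positive, with a median of 0.23. They were eIF3h (log2 0.47), eIF3l (0.40) and eIF3m (0.39), and 0 members were called without RNA2 library 1, RNA1 library 2 or any 1 control. Of 71 mitochondrial ribosomal genes all 3 tools called 0, with 5 at an unadjusted p under 0.05, and of 77 respiratory chain genes all 3 called 0, with 2 under 0.05.

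Of 19 digestive enzymes tested 2 rose, and the median was 1.75 for library 1 and 0.09 for library 2. For the difference between these libraries 1 of the 19 had an unadjusted p under 0.05, against 7.42% of all genes, and edgeR and DESeq2 called 0. The amylase gene Amy-p held 91.8 and 43.5 CPM in RNA2 and 5.76, 9.60 and 11.3 CPM in control (log2 2.93, FDR 0.0296), and its reads may be shared with the near-identical Amy-d. Mal-B2, a maltase, rose by log2 0.89 (FDR 0.047). Neither passed without RNA2 library 1, RNA1 library 3 or any 1 control (at most 0.137 and 0.266). The summed level of 5 gut markers was 178.3 and 88.25 CPM in RNA2 and 23.09 to 34.52 CPM in control, and it consisted mostly of Amy-p and Amy-d themselves. Of the other gut markers, Mal-A1 held 6.35 and 7.49 CPM in RNA2 and 6.85, 7.31 and 7.53 CPM in control, and Jon65Aiii and Jon25Bi were at or near 0 in both groups.

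Set against each other over all genes, the RNA2 libraries differed in 1 gene, or 0.00902% of those tested, the cuticle gene Cpr64Aa, with 2.65 CPM in library 1 and 15.8 CPM in library 2 (log2 2.57, FDR 0.0408) and 14.0, 17.3 and 13.8 CPM in the controls. An unadjusted p under 0.05 was reached by 822 genes, or 7.42%, and DESeq2 called 144. With 1 library on each side, the spread came from control and RNA1, and a lone library was assumed to vary as those do. The pteridine synthesis list, added after values were seen, had 0 of 6 called against control by edgeR and limma-voom and 3 lower by DESeq2, with 4 at an unadjusted p under 0.05. Its entry enzyme gene Pu held 344 and 671 CPM in RNA2 and 1080, 1116 and 991 CPM in control (log2 -1.07, FDR 0.0752), with library 1 the lower.

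RNA2 was compared with RNA1 to ask whether the 2 knockdowns differ. FBXO11 did not differ beyond the threshold, with 44.8 and 52.7 CPM in RNA2 and 39.7, 42.5 and 37.4 CPM in RNA1 (log2 0.29 ± 0.09, FDR 0.437). In all 31 genes, or 0.28%, differed, 21 (0.19%) higher and 10 (0.0902%) lower in RNA2, and 849 had an unadjusted p under 0.05. Of the near-silent genes described above, CG16826 held 86.6 and 79.3 CPM in RNA2, 0.239, 0.0834 and 0.0911 CPM in RNA1 and at most 0.105 CPM in a control, while the highest RNA1 library held 0.167 CPM of CG45080, 0.0556 CPM of whe and no count of asRNA:CR44155. CG30091 was not called between the knockdowns, with 10.4 and 6.61 CPM in RNA2 and 0.399, 1.61 and 0.395 CPM in RNA1 (FDR 0.0799). The mitotic kinase gene aurB held 8.74 and 8.0 CPM in RNA2, 0.311 ± 0.102 CPM (SD, n = 3) in RNA1 and 0.182, 0.559 and 0.341 CPM in control. Ipk1 was stepped, with 57.0 and 53.0 CPM in RNA2, 29.4, 29.8 and 30.9 CPM in RNA1 and 16.1 to 16.6 CPM in control (RNA2 over RNA1 log2 0.87 ± 0.08, FDR 0.000785). CG4757 was stepped too, with 111 and 95.1 CPM in RNA2, 29.7 ± 5.55 CPM in RNA1 and 19.1, 17.0 and 15.1 CPM in control.

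In another group of these genes RNA1 stood apart while RNA2 was near control. The antisense RNA asRNA:CR45822 held 10.2 and 8.11 CPM in RNA2, 0.106 ± 0.0672 CPM in RNA1 and 8.55, 7.95 and 8.56 CPM in control, and it overlaps CTCF on the opposite strand. CG3397 held 7.66 and 7.47 CPM in RNA2, 0.542 ± 0.141 CPM in RNA1 and 4.87, 8.72 and 5.64 CPM in control. Cul2, a cullin scaffold of another ligase family, held 130 and 128 CPM in RNA2, 211 ± 28.9 CPM in RNA1 and 121, 123 and 131 CPM in control (RNA2 over RNA1 log2 -0.71, FDR 0.037). In lcs RNA2 and RNA1 lay on opposite sides of control, with 31.9 and 16.2 CPM in RNA2, 0.966 ± 0.127 CPM in RNA1 and 3.57, 3.31 and 4.28 CPM in control. The count of differing genes was 17 without RNA2 library 1, 18 without RNA1 library 2 or 3 and 19 without control 3.

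**Figure D5:**
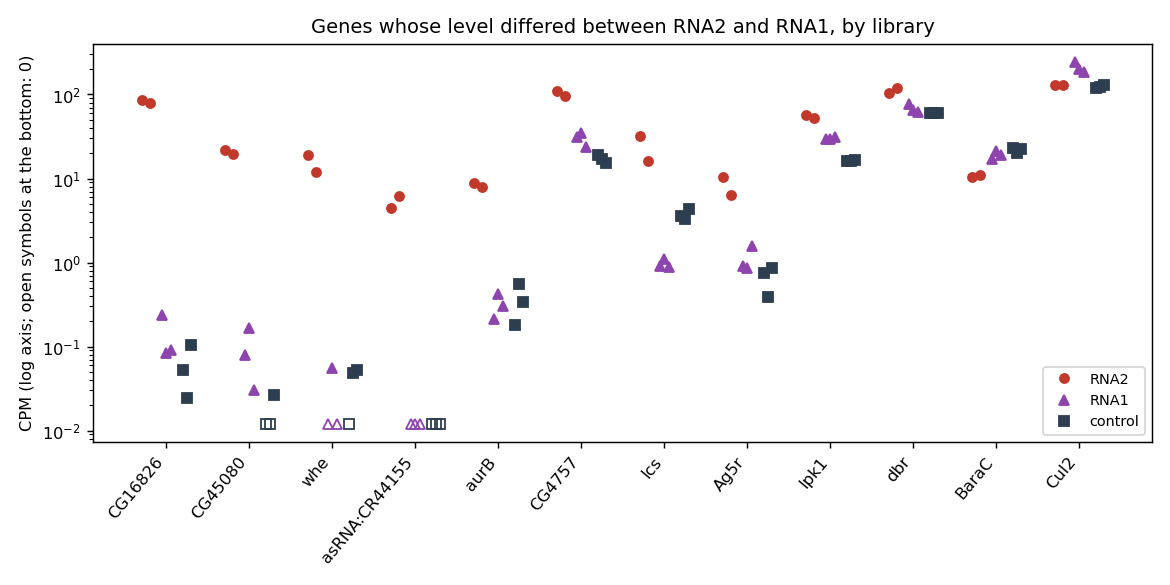
CPM on a log axis in RNA2, RNA1 and control libraries for 12 genes that differed between RNA2 and RNA1, with open symbols at the bottom for a count of 0. In CG16826, CG45080, whe and aurB RNA2 stands alone, with both RNA2 libraries above every RNA1 and control library.

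The share of tested genes called against control was 2.33% on X, 4.26% on 2L, 4.92% on 2R, 3.2% on 3L, 3.97% on 3R and 3.03% on 4. Rises ranged from 0.667% on X to 3.01% on 2R. No run of 4 or more neighbouring tested genes was called in the same direction, and shorter runs were not looked for. Of 10220 protein-coding genes tested 180 rose and 217 fell, and of 682 noncoding RNAs 14 rose and 5 fell.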

How the data were processed

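Head RNA was prepared with Trizol and a lipid tissue kit, and libraries with a stranded mRNA kit, per the labels' protocols. The authors deposited 1 table of raw counts, whole numbers for each of 17676 genes. Symbols were found for 17549 of them, and 2507 had no count in any library. The submitters' processing notes name STAR 2.6.1, SAMtools 1.8, cutadapt 1.18, bcl2fastq 2.17, FastQC 0.11.8 and DESeq2 1.24.0, and the build BDGP6. For the counting tool, its strand setting and the annotation, the entry is: not given in the sources used here. Coordinates and overlaps come from Ensembl's BDGP6 annotation, whose release may differ from the authors'.

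Counts were tested with edgeR 4.0.16 in R 4.3.3. Genes passing filterByExpr (minimum count 10, minimum total 15) were scaled by TMM and fitted in 1 quasi-likelihood model with robust dispersion and a mean for each of the 3 groups, over all 8 libraries. The biological coefficient of variation was 0.143. Tests were two-sided F tests with Benjamini-Hochberg adjustment over all genes tested and a threshold of 0.05. Dividing the size of a log2 fold change by the root of its F statistic gave the SE. For genes nearly absent from a group, ratios of pooled counts carry exact 95% intervals, and a count of 0 was set to a floor of 3 counts over the group, both for counting error only. A fit with RNA2 library 1 and library 2 as separate groups gave their difference. In simulated counts over 10927 genes for RNA2 against control, 90 of 100 genes changed by log2 1 and 100 of 100 changed by log2 2 were called, with 7 false calls. The simulation gave all genes the same dispersion and both RNA2 libraries the same mean, and it changed only well-counted genes. It cannot give the recovery or false calls for genes of low level or for genes in which the RNA2 libraries differ.

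The members, gene lists, tests and naming rule were chosen with earlier results of these data known. The lists of tyrosine breakdown, proteasome-associated factors, eIF3, juvenile hormone binding and pteridine synthesis were added after values were seen. Genes named were FBXO11, the 15 largest rises and falls whose groups did not overlap, the 5 of smallest FDR in each direction, up to 4 called members of each list in each direction, and the genes of smallest FDR between RNA2 and RNA1. Another 39 genes, among them Rpn3, Lsp2, CecA1, Mtk, AttC, SPR, ImpL2, Pu, Cul2 and the juvenile hormone binding and, GstZ1 aside, tyrosine breakdown genes, were named after their values were seen. The text gives a part of all these. Lists are described by counts and medians, with no set test. Alternatives were DESeq2 size factors, library totals, no filter, a minimum count of 50, DESeq2 1.42.0, limma-voom (limma 3.58.1), a replicate block, the 5 RNA2 and control libraries alone, and leaving out each library. A planned description of promoter motifs was not run, and sequences were not used here.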

Additional observations from a re-analysis of the deposited data

Results flagged for a closer look

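Several named genes differed between RNA2 and RNA1, both set against the same controls, by the test of that difference (edgeR, FDR under 0.05, 31 genes in all). The log2 difference of RNA2 minus RNA1 was 9.17 for CG16826, 7.73 for CG45080, 9.46 for whe, 10.61 for asRNA:CR44155 and 3.33 for CG43679. These fitted values depend on the prior count, since RNA1 held almost no reads of them. The difference was 4.74 for aurB, 4.63 for lcs, 2.92 for Ag5r, 1.8 for CG4757, 0.87 for Ipk1 and 0.72 for dbr. It was 6.42 for asRNA:CR45822, 4.87 for asRNA:CR45835 and 3.8 for CG3397, where RNA1 was the group away from control. It was -0.84 for BaraC, -0.73 for BomS6 and -0.71 for Cul2. Ag5r, dbr and both antisense RNAs named with them overlap a gene on the opposite strand.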

How the results depend on the processing

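FBXO11 kept its fall under all 16 alternatives, and none of the 419 calls of RNA2 against control changed sign. The DESeq2 test called more: 902 genes in RNA2 against control (353 higher, 549 lower), 147 in RNA2 against RNA1 (66 higher, 81 lower) and 144 in RNA2 library 2 against library 1 (135 higher, 9 lower). That last comparison had 0 calls, and so 0 higher, with library totals, with the stricter filter and with limma-voom. With no filter 18 genes were lower in RNA2 than in RNA1. Leaving out 1 library at a time gave 115 to 561 calls for RNA2 against control (59 to 264 higher, 56 to 360 lower). For RNA2 against RNA1 it gave 17 to 40 calls, with 2 to 15 lower. The fewest calls against control came without RNA2 library 1, and the causes were not tested. Direction reversed for asRNA:CR45822 (log2 -0.041 without RNA2 library 1, 0.29 without library 2) and Cpr64Aa (0.065 without library 1, -2.51 without library 2), neither of which was called against control. The replicate numbers were not shown to pair the libraries: deviations of same-numbered libraries correlated at -0.231 to 0.164 across genes. With the replicate block, 214 genes were called in RNA2 against control (94 higher, 120 lower) and 17 in RNA2 against RNA1 (3 lower). Changes in genes below the filter on low counts were not detectable at this depth.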

Other observations

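Markers of tissues that a head should lack were also read out. The summed level of ovary and eggshell markers was 0.362 and 1.48 CPM in RNA2 and 4.80 to 9.11 CPM in control, and Cp38 made up nearly all of it (0.167 and 1.33 CPM in RNA2 and 4.59, 8.43 and 8.14 CPM in control), with the other 6 markers near 0. That of testis markers was 2.37 and 2.21 CPM in RNA2 and 1.82 to 1.92 CPM in control. The germline helicase gene vas fell in RNA2 heads by 2.03 on the log2 scale (edgeR FDR 0.0344), a call lost without either RNA2 library, control 1, control 3 or RNA1 library 2 or 3 (at most 0.217). Of 9 eggshell and ovary genes 6 had a positive log2 fold change, the median was 0.27 and edgeR called 0, with 2 at an unadjusted p under 0.05 and 1 lower by DESeq2 and by limma-voom. Of 10 genes in the testis and male accessory gland list edgeR and limma-voom called 0 and DESeq2 called 1 lower, with 2 under 0.05. The member of smallest p was Acp65Aa (log2 -1.31, edgeR FDR 0.126), a cuticle protein gene that is also in the cuticle list. These counts are therefore not of testis genes alone. Of 11 sex-biased genes edgeR and limma-voom called 0 and DESeq2 called 1 higher, with 2 under 0.05. The male marker lncRNA:roX1 held 1670 and 1695 CPM in RNA2 and 1672, 1454 and 1446 CPM in control. The female marker Yp1 held 0.2785 and 0.354 CPM in RNA2 and at most 0.4617 CPM in a control. Yp2, also a female marker, held 0.6127 and 0.7964 CPM in RNA2 and at most 1.652 CPM in a control. The female marker Yp3 was higher in RNA2 library 1 only, with 50.66 CPM. RNA2 library 2, with 37.05 CPM, was level with the controls, at 36.85, 36.15 and 37.04 CPM. The sex of the flies was not tested.

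Flight muscle actin, Act88F, rose by log2 0.81 (FDR 0.0305), the only call among 28 muscle genes, and it was lost without either RNA2 library, control 1 or control 2 (at most 0.115). Calls made up 3.57% of the muscle list, against 3.78% of all genes. The summed level of muscle markers was 7750 and 8665 CPM in RNA2 and 8077 to 9427 CPM in control. The Notch pathway factor gene Su(H) fell by 0.46 on the log2 scale (FDR 0.0287), the only call among 14 Notch genes, and it was lost without RNA2 library 1, RNA1 library 2 or any 1 control (at most 0.259). In the short Notch list this single call made up 7.14%. Of 15 glycolysis genes all 3 tools called 0, and none reached an unadjusted p of 0.05.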
